A study of Bos taurus with 14 samples.

Results

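The comparison described here sets the muscle libraries whose sample title ends its number with the letter A against those that end it with the letter B. All 14 of the 14 libraries of the series fall into one of these groups, 9 into A and 5 into B. The letter is a part of the sample title only. Its meaning is not given in the labels used here, so A and B are used as names and nothing is assumed about animals, sires, pens, batches or tissue pieces behind them.

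RNA was measured by sequencing in longissimus dorsi, a back muscle sold as loin and rib cuts, taken from female cattle (Bos taurus) killed at postnatal day 485. Their dams had been fed either in full (control) or below requirement (restricted) from gestation day 158 until they calved. Control dams received 100% of the tabulated requirement, and restricted dams 70% by one label and 50% by another, so the depth of the restriction is uncertain. All calves were raised alike, with free access to feed from day 301. Group A held 5 calves of control and 4 of restricted dams, and group B held 2 of control and 3 of restricted dams. Libraries are named here by letter and number: A1 to A5, B1 and B2 came from control dams, and A6 to A9, B3, B4 and B5 from restricted dams. The titles also start with R or Y, again with no meaning given. A1, B1 and B3 carry R, so 1 of 9 A libraries and 2 of 5 B libraries do. The labels name no shared sire or herd group, and p-values measure only the spread between these libraries.

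Muscle fibres lie in a scaffold of extracellular matrix, made mostly by fibroblasts and fibro-adipogenic progenitors. Type I and type III collagens form its fibrils, small proteoglycans such as lumican and decorin bind the fibrils and shape them, and lysyl oxidases cross-link them. Osteopontin, the product of SPP1, is a secreted glycoprotein that binds integrins and is made by macrophages and by regenerating muscle among other cells. Fat stored between the fibres of this muscle is the marbling of beef, and the same progenitors can become adipocytes.

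Library totals ran from 13631018 to 17325779 counts. The table held 18078 genes, 193 of them with no read, and 12426 passed the filter on low counts and were tested. The tissue label held in every library: the fibre genes ACTA1, MYH1, MYH7, CKM and MB lay between 7260 and 66000 CPM (reads relative to the library total after TMM scaling, the unit of all levels below). Defining genes of B cells (MS4A1, CD79B) did not exceed 10 reads in any library, and TNMD, SCX and MKX of tendon did not exceed 13. HBA was at 0 in 12 of the 14 libraries, and HBB ranged from 1 to 296 reads. Genes detected with at least 1 read averaged 15230 ± 162 (SD, n = 9) in A and 15490 ± 167 (SD, n = 5) in B. The difference of 282 genes within diets had p = 0.00816 in a two-sided exact permutation test of the letter within each diet, 0.049 after Benjamini-Hochberg adjustment over 6 library measures. With every library thinned to 13631018 counts, which was chosen after seeing the data, the means were 15103 ± 125 (SD, n = 9) and 15314 ± 153 (SD, n = 5), with p = 0.0109 in the same exact test. Among Y titles alone the difference was 284 genes, with an adjusted p of 0.16 in an exact permutation test. The part of this difference in the results below was not tested.

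With dam diet as a covariate, no gene passed an adjusted p of 0.05 between A and B in edgeR's quasi-likelihood test, which is 0% of the 12426 genes. At an unadjusted p under 0.05 there were 745 genes, against 621.3 that a test with no difference would give. Of these, 500 (4.02% of all genes tested) had the higher level in B and 245 (1.97%) the lower. The smallest adjusted p was 0.119, for SPP1. It was 0.603 with the R or Y of the title as a further covariate, and 0.572 among Y titles alone. Another tool, DESeq2, called 20 genes on the same counts, 17 with the higher and 3 with the lower level in B, while limma voom and the robust form of the quasi-likelihood test called 0. Scaling by library size alone moved the median log2 fold change of all genes from 0.0022 to 0.0678 and the unadjusted split to 920 higher and 59 lower, so directions below are relative to the bulk of genes. The genes with the smallest p on the higher side were SPP1, LUM, FNDC1, COL1A1 and COL3A1, and on the lower side SFR1, DYRK2, EEF2, ASB18 and CREBRF. Because none passed, the values below are levels and differences, not calls. The 95% interval of a gene reached 0.278 log2 to either side at the median, and for 11449 genes (92.1%) it excluded a 2-fold difference.

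**Figure D1:**
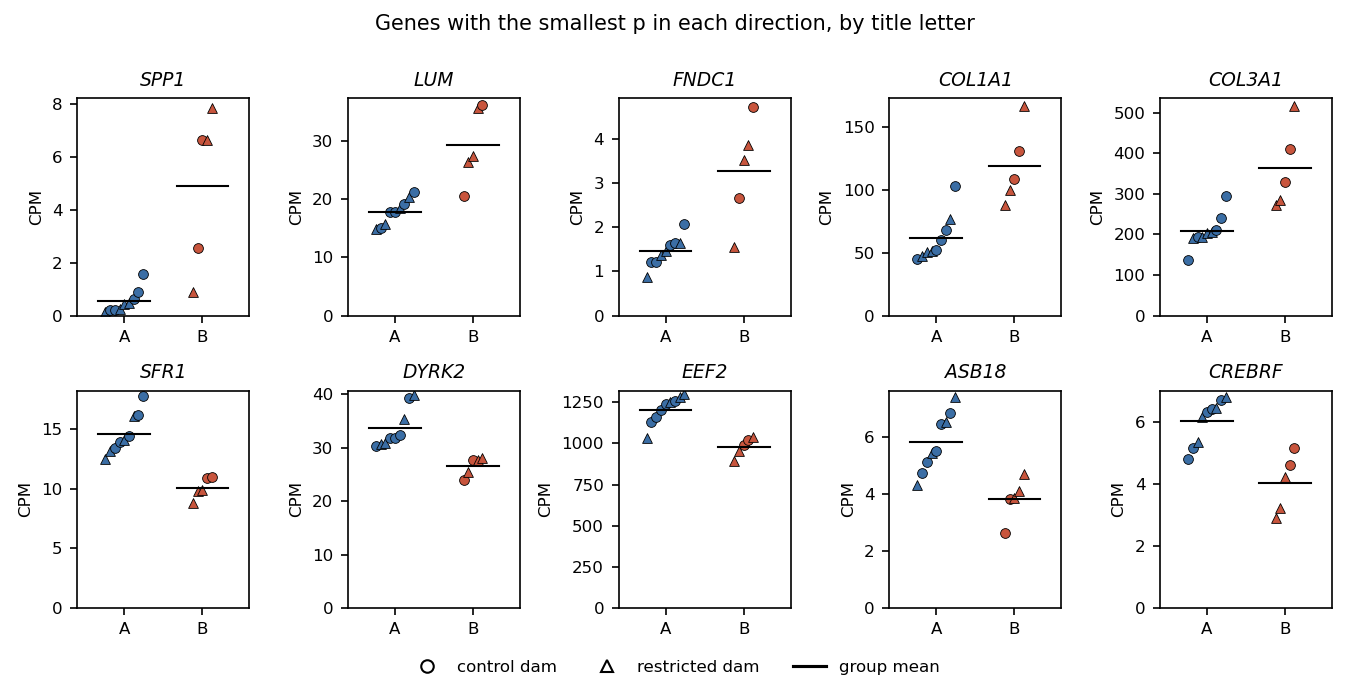
Scaled CPM (vertical axes, from 0) of the 5 genes with the smallest p on each side, in the 9 A and 5 B libraries; circles are calves of control dams, triangles of restricted dams and bars are group means. SPP1 in library B5 (0.905 CPM) lies among the A libraries, while all 5 B libraries lie below all 9 A libraries for SFR1 and DYRK2.

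SPP1 was at 0.137, 0.453 and 1.59 CPM in the lowest, median and highest A library, or 2 to 26 reads. In B it was at 6.64, 2.55, 6.64, 7.83 and 0.905 CPM in B1 to B5, or 16 to 121 reads. Library B5 was thus inside the range of A, below A2, and the other 4 B libraries were above every A library. The log2 fold change of B over A was 3.25 ± 0.51 (SE), which is a 9.49-fold ratio (95% interval 4.49 to 20.1), adjusted p = 0.119 in edgeR's quasi-likelihood test. The difference was 2.64 among calves of control dams and 3.91 among calves of restricted dams, and 2.85 among the titles starting with Y. Leaving out single libraries gave log2 fold changes from 3.0 to 3.6, with adjusted p from 0.0113 without B5 to 0.717 without B1. DESeq2 gave SPP1 an adjusted p of 1.02e-06. Per kilobase of gene length its mean level was 0.955 CPM, against 48.8 for COL3A1, so SPP1 was a rare transcript in this muscle.

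LUM encodes lumican, a keratan sulfate proteoglycan on collagen fibrils. Its level in A was 14.9 at the lowest, 17.8 at the median and 21.2 CPM at the highest, and in B1 to B5 it was 36.2, 20.5, 26.4, 27.3 and 35.6 CPM. Only B2 fell within the A range. The log2 fold change was 0.72 ± 0.13 (SE), with adjusted p = 0.204, and 0.64 and 0.77 within control and restricted dams.

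COL1A1 and COL3A1 encode the chains of the main fibril-forming collagens of muscle. COL1A1 was at 45.4 to 103 CPM in A (median 52.0) and at 131, 109, 87.9, 99.9 and 167 CPM in B1 to B5. Its groups overlapped through A5, the highest A library, which lay above B3 and B4. The log2 fold change was 0.98 ± 0.19 (SE), adjusted p = 0.252. It was 1.07 without A5, where the adjusted p was 0.0456 in the same quasi-likelihood test. COL3A1 was at 137 to 294 CPM in A (median 204) and at 412, 329, 286, 274 and 517 CPM in B1 to B5. Its log2 fold change was 0.82 ± 0.16 (SE), adjusted p = 0.272, with B3 and B4 inside the A range. FNDC1, which encodes a protein with fibronectin type III domains, was at 0.883 to 2.08 CPM in A and at 4.72, 2.66, 3.86, 1.55 and 3.51 CPM in B1 to B5. Here B4 was the library inside the A range, and the log2 fold change was 1.2 ± 0.23 (SE), adjusted p = 0.252. DESeq2 gave adjusted p of 0.00205 for LUM, 0.00232 for COL1A1, 0.00411 for COL3A1 and 0.00764 for FNDC1. In the quasi-likelihood test without B1 the smallest adjusted p over all genes was 0.717.

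The genes on the lower side had smaller differences. SFR1, a partner of SWI5 in repair of DNA by recombination, was at 12.5 to 17.8 CPM in A and at 11.0, 10.9, 8.79, 9.90 and 9.78 CPM in B1 to B5. All B libraries were below all A libraries, with a log2 fold change of -0.52 ± 0.094 (SE), adjusted p = 0.204. DYRK2, a protein kinase, was at 30.3 to 39.9 CPM in A and at 23.9, 27.7, 25.5, 28.1 and 27.8 CPM in B1 to B5, again without overlap (log2 fold change -0.35, adjusted p = 0.487). EEF2, the elongation factor that moves the ribosome along the messenger RNA, was at 1026 to 1302 CPM in A (median 1240) and at 989, 1020, 1040, 893 and 955 CPM in B. Its groups overlapped at their edges, and the log2 fold change was -0.30 ± 0.073 (SE). ASB18, an ankyrin repeat protein with a SOCS box, differed by -0.64 and CREBRF, a regulator of the transcription factor CREB3, by -0.57 on the log2 scale. CREBRF differed by -0.27 within control and -0.85 within restricted dams.

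Of the 12426 genes, 8 (0.0644%) had all B libraries above all A libraries, and 4 (0.0322%) had all B libraries below. The letters can be placed on the libraries in 2002 ways, and a single way puts every B library on top for a given gene. Shares of this order therefore arise with no difference by letter. The first were CCDC80, LOXL2, GLIS2, CXCR4, MMP19, GIMAP7, AFAP1 and a gene without symbol (ENSBTAG00000032859), and the second were SFR1, DYRK2, KLHL41 and PLA2G6. They are named because their groups did not overlap, and their number shows no difference by letter. Matrix products are among the first: CCDC80 is a secreted matrix protein, LOXL2 cross-links collagen and MMP19 is a matrix metalloproteinase. CCDC80 was at 30.4 to 46.03 CPM in A and 46.3 to 66.5 CPM in B, so that the gap between groups was narrow. LOXL2 was at 3.91 to 7.55 CPM in A and 7.64 to 10.2 CPM in B. KLHL41, a kelch protein of the sarcomere, was at 2240 to 2860 CPM in A and 1740 to 2140 CPM in B.

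The 7 lists of matrix genes held 144 tested genes in all, each counted once. Of these, 128 had a positive and 16 a negative fold change of B over A. At an unadjusted p under 0.05, 49 (34.0%) had the higher level in B and 0 the lower, where the shares over all genes were 4.02% and 1.97%. Their median log2 fold change was 0.294, against 0.0022 over all genes. Genes of one list vary together between the same 14 libraries, and the lists were chosen with earlier results of these data known. These counts therefore describe the lists and are no test. In the plot of list medians, small proteoglycans, collagens and matricellular genes lie near the upper end, beside the lists of T and NK cells, tendon and adipocytes. The lists of laminins, fibres, mitochondria and clock lie closer to the median of all genes.

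**Figure D2:**
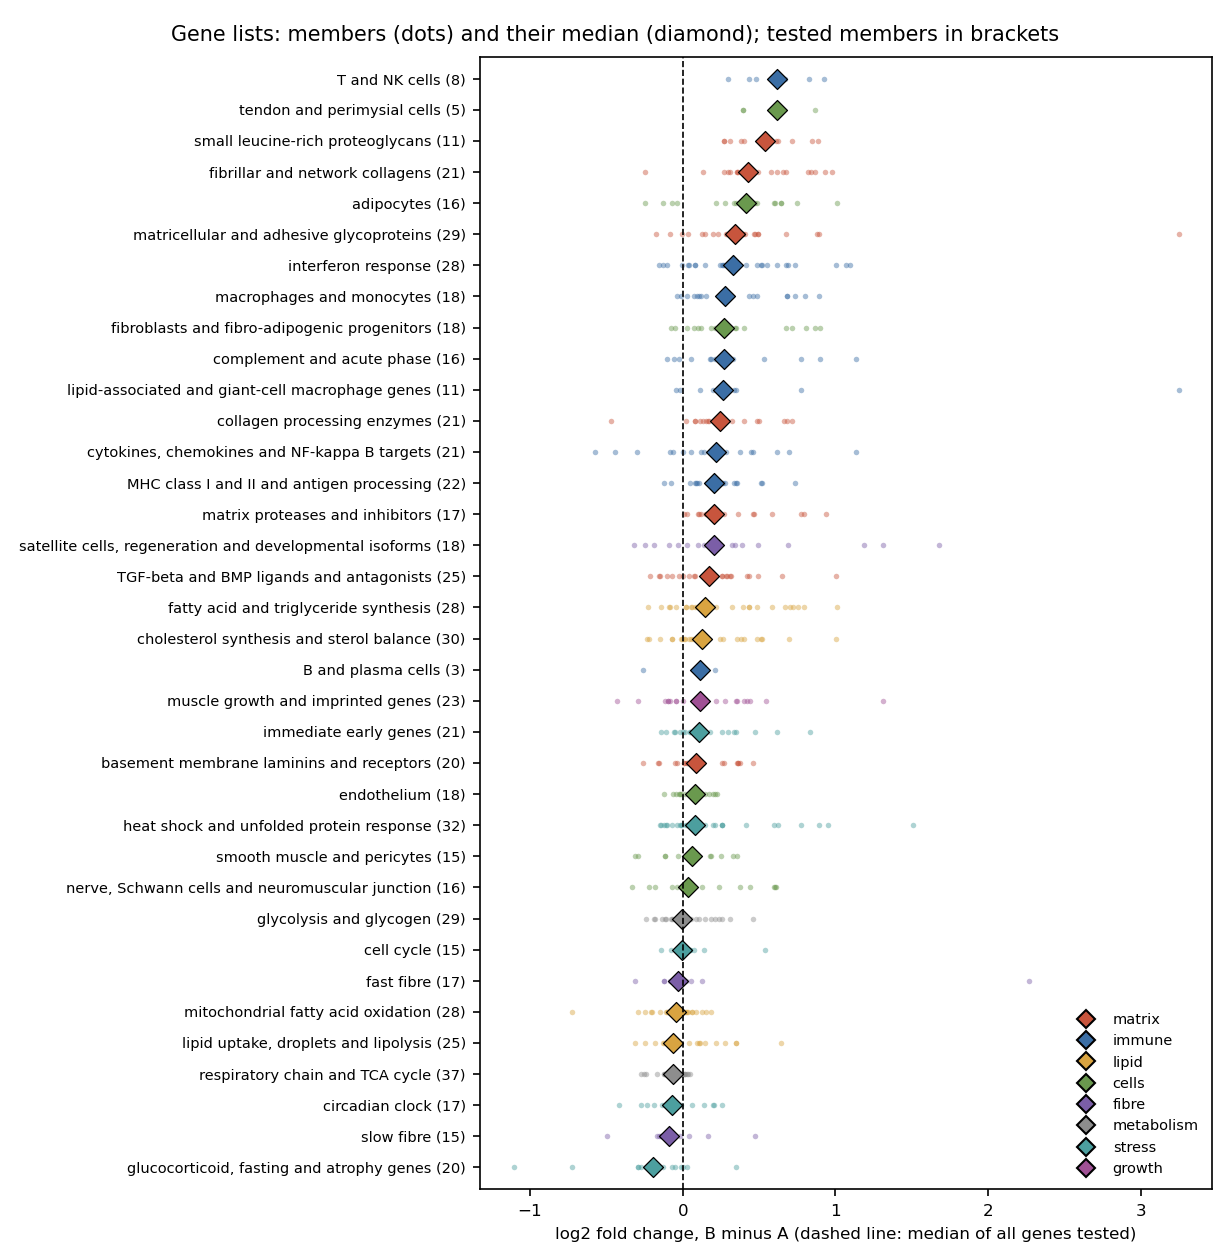
Log2 fold change of B over A (horizontal axis) for the tested members of each list (dots) and their median (diamonds), coloured by theme; the dashed line is the median of all 12426 genes, at 0.0022. The small leucine-rich proteoglycans have a median of 0.54 and the collagens of 0.43, while respiratory chain genes have a median of -0.062.

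All 21 collagen chains found in the table were tested and 20 of them had a positive fold change, with a median of 0.43. An unadjusted p under 0.05 was reached by 13, all higher in B, and none passed after adjustment. Besides COL1A1 and COL3A1 these included COL1A2, the partner chain of type I collagen (0.84 ± 0.19 SE, adjusted p = 0.372), and COL8A1, a chain of the network-forming type VIII (0.67 ± 0.15 SE). Also among them were chains of type VI, the beaded filament around the muscle fibre: COL6A1 (0.36), COL6A2 (0.36), COL6A3 (0.50) and COL6A6 (0.93). COL4A1, the second most abundant tested chain and a component of basement membranes, differed by 0.36 ± 0.18 (SE, unadjusted p = 0.0612), and by 0.207 without B5. The exception in direction was COL6A5, at -0.25. The summed level of the collagens was 782 to 1184 CPM in A (median 948) and 1514, 1434, 1200, 1087 and 1854 CPM in B1 to B5. Library B4 lay within the A range, below A4 and A5. The list median lay between 0.345 without B5 and 0.51 without B4. Among Y titles alone, 8 chains were under an unadjusted p of 0.05, with a median of 0.463.

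Small leucine-rich proteoglycans showed the same direction in all 11 tested members, with a median of 0.54, and 6 reached an unadjusted p under 0.05. Decorin (DCN), the most abundant of them, was at 104 to 183 CPM in A and at 200, 143, 206, 144 and 184 CPM in B1 to B5. Asporin (ASPN) differed by 0.85 ± 0.19 (SE), biglycan (BGN) by 0.54, fibromodulin (FMOD) by 0.62 and osteoglycin (OGN) by 0.38. FMOD differed by 0.244 without B1. Library B1 bore on this list: without it the median was 0.356 and the number under an unadjusted p of 0.05 was 3. Among Y titles alone the median was 0.298 and the number 4, and with the title prefix as a covariate the number was 3. Per kilobase, DCN stood at 69.9 CPM on average over all libraries and LUM at 11.9.

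Of the 29 tested matricellular and adhesive glycoproteins, 26 had a positive fold change and 13 an unadjusted p under 0.05 on the higher side, with a median of 0.34. SPARC, which binds collagen during its assembly, was the most abundant at 146 to 247 CPM in A and 245, 280, 251, 238 and 393 CPM in B1 to B5 (0.49 ± 0.13 SE). SPARCL1, its relative and the second most abundant, differed by 0.036 ± 0.13 (SE). Fibulin 1 (FBLN1, 0.68), periostin (POSTN, 0.88), tenascin C (TNC, 0.89) and thrombospondin 4 (THBS4, 0.39) were among the 13. Without B1 the number was 7 and the median 0.215, and among Y titles alone they were 4 and 0.199. For TNC the difference among titles starting with Y was 0.22, and for THBS4 it was 0.244 without B5.

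Enzymes that process collagen had a positive fold change in 20 of 21 genes, a median of 0.24 and 5 genes with an unadjusted p under 0.05. These 5 were LOXL2 and LOXL1, which cross-link the fibrils, and ADAMTS2, BMP1 and PCOLCE, which act on the ends of procollagen. The 2 most abundant members, the chaperones PPIB and SERPINH1, differed by 0.17 and 0.21. Proteases and their inhibitors had a positive fold change in all 17 tested members, with 6 under an unadjusted p of 0.05. Among them were MMP2 (0.47 ± 0.15 SE), MMP14 (0.46), which activates MMP2 at the cell surface, and FAP (0.79). MMP14 differed by 0.303 without B5. TIMP2 and TIMP3, the most abundant inhibitors, differed by 0.21 and 0.16. Without B1 the median of the processing enzymes was 0.157, and without B5 3 of them were under an unadjusted p of 0.05. The proteases and inhibitors had a median of 0.205, and without A3 4 of them were under that p. Among Y titles alone 13 of them had a positive fold change and 3 were under that p, with a median of 0.266.

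Laminins and their receptors had a median of 0.085, with 4 of 20 members (LAMA4, LAMA5, LAMB1 and HSPG2) under an unadjusted p of 0.05, and 1 of 20 without B2. The abundant sarcoglycans SGCB and SGCA of the fibre membrane differed by 0.007 and 0.052. Ligands, receptors and antagonists of the TGF-beta and BMP pathways had a median of 0.17, with the Wnt antagonists SFRP4 (1.003 ± 0.30 SE) and SFRP1 (0.65 ± 0.24 SE) under an unadjusted p of 0.05 among 25 genes. FSTL1 and LTBP4, their most abundant members, differed by 0.32 and 0.14. The median was 0.112 without A3, and the number was 1 without B1 and 4 without B4. Among Y titles alone the median was 0.0112, with a positive fold change in 14 of 25 and 1 gene under an unadjusted p of 0.05. SFRP4 differed by 0.656 without B1.

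**Figure D3:**
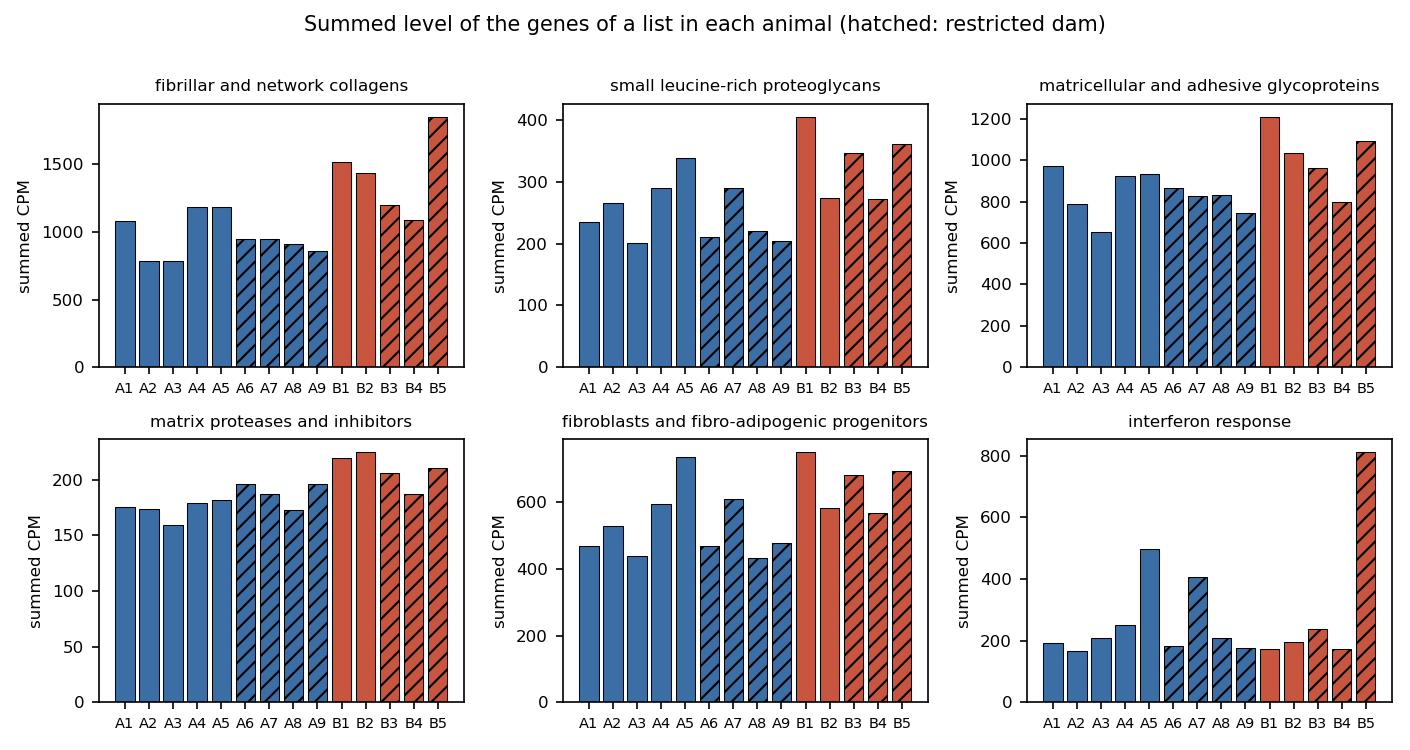
Summed scaled CPM of all genes of a list in each of the 14 libraries (bars from 0; blue A, red B; hatched bars are calves of restricted dams). Collagens are highest in B5, B1 and B2 and the B4 bar lies within the A range, and the interferon response is high in B5 (813 CPM), A5 and A7.

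Markers of other cell types differed by letter to varying degrees. Genes of fibroblasts and fibro-adipogenic progenitors had a positive fold change in 16 of 18 tested members, with a median of 0.27, and 5 of them (LUM, THY1, FBLN1, PI16 and DCN) had an unadjusted p under 0.05. Their summed level was 433 to 736 CPM in A and 567 to 750 CPM in B. Of these 5, LUM, FBLN1 and DCN are also among the matrix genes described above. Library A5 held the highest A level, and without it 8 members were under an unadjusted p of 0.05. Without B1 the number was 4, and without B5 the median was 0.199. Among Y titles alone the number was 4 and the median 0.153. PDGFRA, the receptor that defines these progenitors, was at 15.2 to 27.9 CPM in A and 16.2 to 25.4 CPM in B, and differed by 0.28 ± 0.15 (SE, unadjusted p = 0.077). The 5 tested genes of tendon and perimysium all had a positive fold change (median 0.61), of which 4 were under an unadjusted p of 0.05. Without B1 it was 0 members with a median of 0.329, and without B5 2 members. Several of those genes are also collagens or proteoglycans of the lists above, and the defining tendon genes TNMD, SCX and MKX were too low to be tested. Endothelial genes (median 0.082, 18 tested) and smooth muscle genes (median 0.062, 15 tested) had 0 members under an unadjusted p of 0.05. The endothelial median changed sign without B2 (-0.0351) and was 0.212 within control and -0.0724 within restricted dams. That of smooth muscle was 0.0084 without B2, 0.267 within control and -0.0485 within restricted dams. In bulk muscle, more cells of a type and more RNA per cell cannot be told apart, and the part of cell composition in the matrix difference was not tested.

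The difference in matrix genes was read separately in each diet. The quasi-likelihood test of the interaction of letter and diet called no gene (0%; smallest adjusted p 0.54), with 623 genes (5.01%) at an unadjusted p under 0.05, while DESeq2 called 7. Among the collagens, 20 of 21 had a positive fold change among calves of control dams (median 0.46) and 19 of 21 among calves of restricted dams (median 0.49). All 11 small proteoglycans were positive in both diets, with medians of 0.41 and 0.53. The matricellular genes were positive in 26 of 29 and 22 of 29, with medians of 0.403 and 0.255. For the collagen processing enzymes the counts were 20 and 17 of 21 (medians 0.284 and 0.191), and for the proteases 14 and 11 of 17 (0.331 and 0.181). Laminins and their receptors were positive in 15 and 11 of 20, with medians of 0.158 among calves of control dams and 0.0283 among those of restricted dams. The TGF-beta and BMP genes were positive in 22 of 25 and 13 of 24, with medians of 0.256 and 0.0636. The 2 diets share no library, but each rests on few B calves, 2 and 3.

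**Figure D4:**
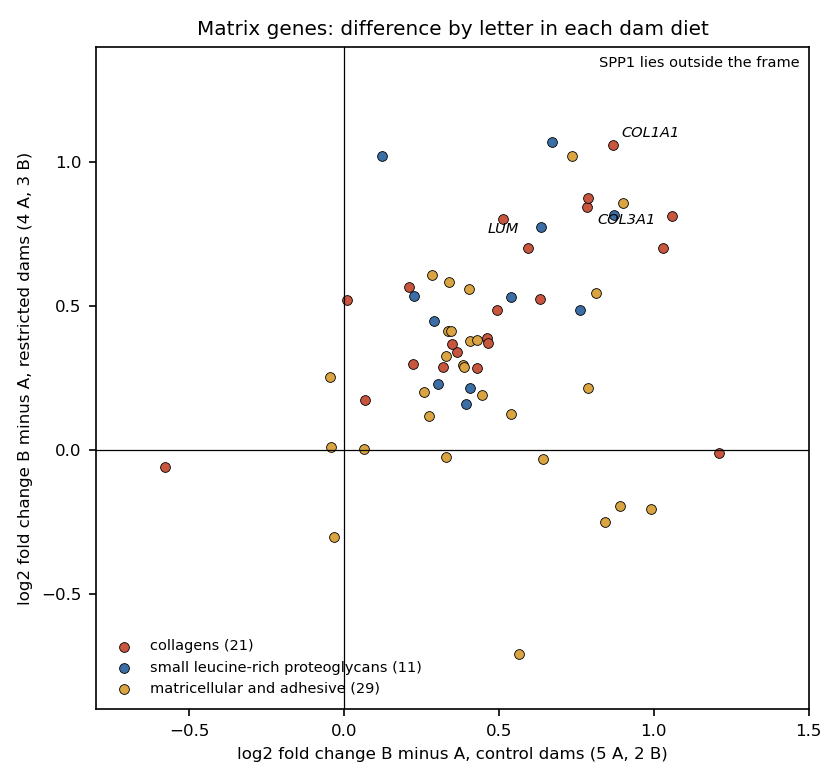
Log2 fold change of B over A among calves of control dams (horizontal axis, 5 A and 2 B) and of restricted dams (vertical axis, 4 A and 3 B) for tested collagens, small leucine-rich proteoglycans and matricellular genes; lines mark 0. Most points lie in the quadrant that is positive in both diets, and SPP1 (2.64 and 3.91) is outside the frame.

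The 9 immune lists held 129 tested genes in all, of which 110 had a positive fold change (median 0.258). These include the interferon response, with 24 of 28 genes positive but 1 of 28 within control dams. No direction by letter is given for it below, and other immune lists also differed by diet. Of the 129, 12 (9.3%) had an unadjusted p under 0.05 on the higher side and 0 on the lower, beside 4.02% and 1.97% of all genes tested. Among 18 tested genes of macrophages and monocytes, CSF1R, the receptor for the growth factor of these cells, was at 1.10 to 4.16 CPM in A and at 4.43, 2.33, 4.43, 3.30 and 5.2 CPM in B1 to B5 (0.89 ± 0.31 SE, adjusted p = 0.757). The groups overlapped in most of their range. AIF1 (0.69) and TYROBP (0.80) were the others under an unadjusted p of 0.05. The more abundant LGMN (0.11) and the defining markers CD68 (0.026), CD163 (-0.034) and CD14 (0.26), differed little against their errors. Without B5 the macrophage list had 1 gene under an unadjusted p of 0.05 and a median of 0.175, and without A4 it had 5 genes. The median was 0.042 among calves of control dams and 0.52 among those of restricted dams. CSF1R differed by 0.28 and 1.38 in the 2 diets, with an unadjusted interaction p of 0.0661.

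SPP1 is also a gene of lipid-associated macrophages. Of the 11 tested genes of that list, SPP1, GPNMB (0.77), LIPA (0.35) and CTSK (0.27) had an unadjusted p under 0.05. The number was 2 without any one of A8, A9, B1 and B5. TREM2, MMP9, MMP12 and DCSTAMP of the same list were too low to be tested. GPNMB, a membrane glycoprotein of such macrophages, was at 0.279 to 1.01 CPM in A and at 0.699, 0.609, 1.14, 1.68 and 1.92 CPM in B1 to B5. The B libraries above the A range were those of the 3 restricted dams, and the difference was -0.054 within control and 1.36 within restricted dams. Library B5, with the highest GPNMB, had the lowest SPP1 among the B libraries.

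T and NK cell genes were low, with 12 of 20 in the table untested, and all 8 tested genes had a positive fold change (median 0.61). CD3E, a chain of the T cell receptor complex, was at 0.602 to 2.45 CPM in A and at 1.75, 1.38, 3.86, 2.01 and 3.68 CPM in B1 to B5. CD3E differed by 0.0595 within control and 1.4 within restricted dams, and the list median was 0.263 and 0.828. With CD4 (0.92), CD3E made 2 genes under an unadjusted p of 0.05. Without B5 there were 0, without A4 there were 4, and without any one of A1, A6, A7, A9, B1 and B3 there was 1. Of 21 tested genes of cytokines, chemokines and NF-kappa B targets, 16 had a positive and 5 a negative fold change (median 0.221). Of them, 2 had an unadjusted p under 0.05 on the higher side. The median was 0.0831 within control and 0.295 within restricted dams. CCL14 and NFKBIA, the most abundant members, differed by 0.0026 and -0.44. The chemokine CXCL14 was at 1.70 to 5.39 CPM in A (median 2.40) and at 7.17, 3.43, 5.25, 5.31 and 5.54 CPM in B1 to B5, with a log2 fold change of 1.13 ± 0.24 (SE), adjusted p = 0.372. One A library, at 5.39 CPM, overlapped with B, and without A5 the adjusted p of CXCL14 was 0.042 in edgeR's quasi-likelihood test. CXCR4, the receptor for the chemokine CXCL12, was at 1.17 to 3.39 CPM in A and at 3.48 to 4.81 CPM in B. It is among the genes named above because their groups did not overlap, and it is on no immune list. No tested member of the immune lists had all B libraries above all A libraries. Genes of antigen presentation (median 0.21, 22 tested; 0.1 without B5, 0.119 without B3 and 0.319 without B2) had 0 members under an unadjusted p of 0.05, and their most abundant members B2M and CD74 differed by -0.077 and 0.26. The median changed sign by diet, from -0.0143 (10 of 22 positive) within control to 0.352 (19 of 22) within restricted dams. Of the complement genes only CFB (1.13 ± 0.44 SE) was below that p among 16, with 3.85 CPM in B5 against 0.647 to 1.81 in the other B libraries. Without B5, CFB differed by 0.564 and the complement median of 0.268 was 0.174.

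The interferon response was high in 3 animals. Summed over its genes, it reached 813 CPM in B5, 497 in A5 and 407 in A7, and 167 to 252 CPM in the other 11 libraries. ISG15 was at 35.3 CPM in B5 and at 0.757 to 1.44 CPM in the other B libraries. The list median was 0.33 with all libraries, -0.83 without B5 and 0.69 without A7, and it was -1.02 within control and 1.17 within restricted dams, so no direction by letter is given. A repeat without these 3 libraries, chosen after seeing the data, gave medians of 0.41 for the collagens, 0.51 for the small proteoglycans and 0.39 for the matricellular genes. In it COL1A1, COL1A2, SPP1, AEBP1 and MYH4 passed an adjusted p of 0.05 in the quasi-likelihood test.

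**Figure D5:**
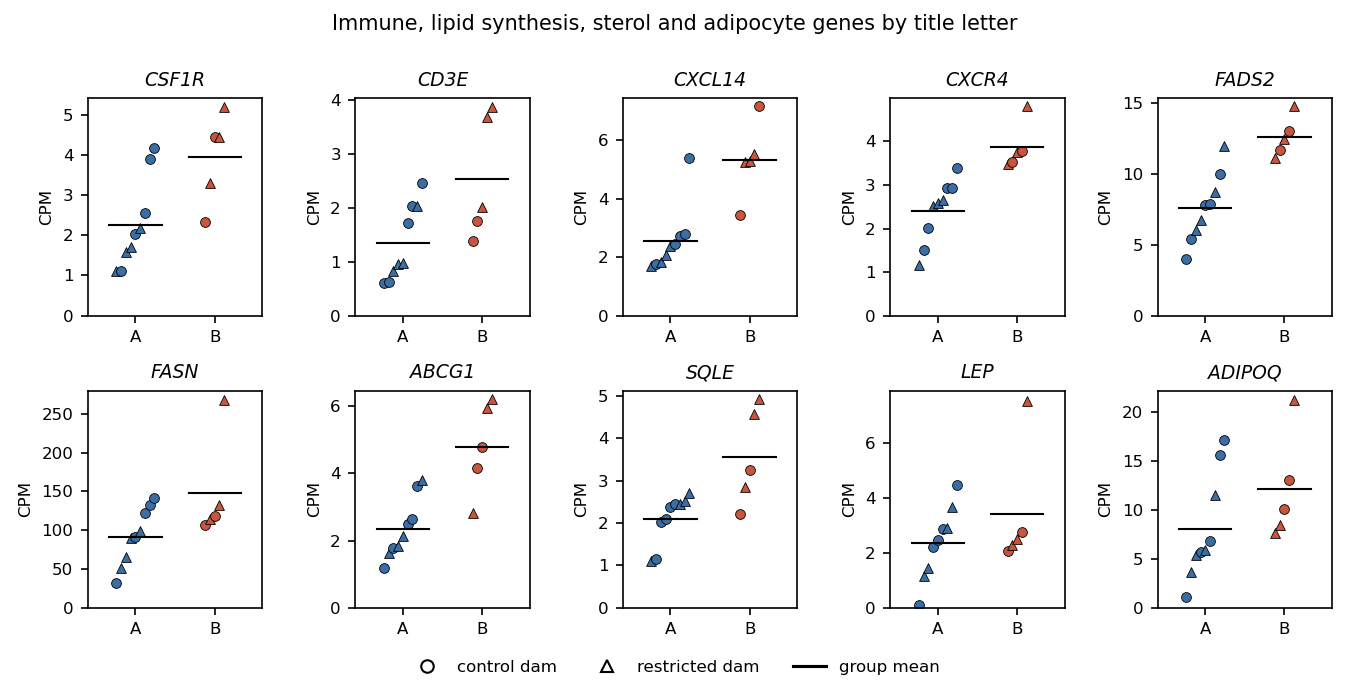
Scaled CPM (vertical axes, from 0) of immune genes (CSF1R, CD3E, CXCL14, CXCR4), genes of lipid and sterol metabolism (FADS2, FASN, ABCG1, SQLE) and adipocyte hormones (LEP, ADIPOQ) in A and B libraries; circles are calves of control dams, triangles of restricted dams and bars are group means. CXCR4 alone of these genes shows no overlap. It was named for that reason and is on no immune list. B5 is the highest library for FASN, LEP and ADIPOQ.

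Lipid genes gave a mixed picture. The 4 lipid lists held 111 tested genes, 67 with a positive and 44 with a negative fold change (median 0.051), of which 13 (11.7%) had an unadjusted p under 0.05 on the higher side and 2 on the lower. Over all genes tested the shares were 4.02% and 1.97%. Fatty acid and triglyceride synthesis supplied 5 of the 13, with 23 of its 28 tested genes positive and a median of 0.146. Within control dams 17 of 28 were positive (median 0.1), and within restricted dams 22 of 28 (median 0.249). FADS2, a desaturase of long-chain fatty acids, was at 3.96 to 12.02 CPM in A (median 7.80) and at 13, 11.7, 14.8, 11.1 and 12.5 CPM in B1 to B5 (0.70 ± 0.19 SE, adjusted p = 0.599). FASN, the fatty acid synthase, was at 32.2 to 141 CPM in A and at 107, 119, 114, 132 and 268 CPM in B1 to B5. Only B5 exceeded the A range, and the log2 fold change of 0.72 ± 0.32 (SE) was 0.117 within control and 1.16 within restricted dams. SCD, the stearoyl-CoA desaturase and most abundant gene of the list, was at 69.3 to 477 CPM in A and 1060 CPM in B5, with 339 to 398 CPM in the other B libraries. ELOVL5 (0.67), GPAT3 (0.58) and the regulator SREBF1 (0.39) completed the 5, and AGPAT2, the other most abundant member, differed by 0.22. ELOVL5 was at 22 CPM in B5 and at 6.01 to 8.57 CPM in the other B libraries, and differed by 0.259 without B5. Without that library FASN differed by 0.402 and SCD by 0.345. The number was 2 without A7, 2 without B5 and 8 without A5.

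Sterol genes were the other group. Of 30 tested, 23 had a positive fold change (median 0.13) and 8 an unadjusted p under 0.05, all higher in B. Among these were the synthesis enzymes SQLE (0.70), CYP51A1 (0.40), MSMO1 (0.38) and LSS (0.36), the regulator INSIG1 (0.48) and the sterol exporter ABCG1. ABCG1 was at 1.18 to 3.79 CPM in A and at 4.78, 4.15, 5.95, 6.21 and 2.83 CPM in B1 to B5, with B5 again the library inside the A range (1.01 ± 0.26 SE, adjusted p = 0.519). The most abundant enzymes of the list, FDFT1 and IDI1, differed by -0.22 and 0.018. Without B5, 5 members had an unadjusted p under 0.05, the median was 0.059 and INSIG1 differed by 0.3. Among calves of control dams 15 of 30 sterol genes had a positive fold change (median -0.00748), and among those of restricted dams 24 of 30 (median 0.168).

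Adipocyte genes did not separate the letters. Of 16 tested, 12 had a positive fold change (median 0.41), yet 0 had an unadjusted p under 0.05 on the higher side and 1, PLIN4 (-0.25), on the lower. ADIPOQ, the adipocyte hormone adiponectin, was at 1.07 to 17.2 CPM in A and at 10.1, 13.1, 8.48, 7.64 and 21.2 CPM in B1 to B5 (0.65 ± 0.45 SE, unadjusted p = 0.169; 0.303 without B5). The list median was 0.124 without B5, -0.019 within control dams and 0.73 within restricted dams. GPD1, the most abundant member and also a gene of the fibres, differed by -0.039. Genes of lipid uptake, droplets and lipolysis (median -0.061, 25 tested) and of mitochondrial fatty acid oxidation (median -0.044, 28 tested) lay near the median of all genes. Within control dams they were -0.172 and -0.157, and within restricted dams 0.0695 and 0.00663. With scaling by library size both medians changed sign, to 0.00102 and 0.0205. FABP3 and CD36, which take up fatty acids, differed by -0.18 and 0.11. ETFA and UCP3, the most abundant oxidation genes, differed by -0.091 and -0.15, and ETFDH was the one oxidation gene under an unadjusted p of 0.05 (-0.29 ± 0.092 SE).

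In the fibres themselves, fast fibre genes had a median of -0.028 (17 tested) and slow fibre genes of -0.091 (15 tested). With scaling by library size the fast fibre median was 0.037, and it was -0.193 within control and 0.0866 within restricted dams. The slow fibre median was 0.0188 without B1, -0.194 without B2 and 0.00082 among Y titles alone. The abundant TNNC2 and MYLPF of fast fibres and MYL2 and TNNC1 of slow fibres differed by -0.068, -0.069, 0.043 and -0.14. MYH4, the fastest myosin heavy chain, was at 20.3 to 745 CPM in A (median 23.3) and at 675, 310, 765, 295 and 23.8 CPM in B1 to B5. In A, A7 (745 CPM) and A1 (105 CPM) were high, and the other A libraries lay between 20.3 and 31.4 CPM. Counts of MYH4 can be shared with near-identical myosin genes, and it differed by 2.27 ± 0.93 (SE, adjusted p = 0.803). The difference was 3.8 without A7, 3.6 within control and 0.817 within restricted dams. Respiratory chain and TCA cycle genes had a negative fold change in 30 of 37 members, with a median of -0.062 and 3 members under an unadjusted p of 0.05 on the lower side: COX8B (-0.25), NDUFA4 (-0.24) and COX7A1 (-0.27). The median was 0.00246 with scaling by library size, -0.25 within control and 0.077 within restricted dams. ATP5F1B and MDH2, the most abundant, differed by -0.069 and -0.043.

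Genes of satellite cells and developing fibres had a median of 0.20, with 5 of 18 under an unadjusted p of 0.05 on the higher side. The number was 3 without any one of A3, A4 and A5 and 2 without B2 or B4, and the median was 0.085 without B4. NCAM1, an adhesion protein of satellite cells and of nerve, was at 7.87 to 18.3 CPM in A and at 13.8, 17.4, 25.2, 26.3 and 23.5 CPM in B1 to B5 (0.69 ± 0.15 SE, adjusted p = 0.372). Libraries B1 and B2 were inside the A range. MYH3, the embryonic myosin heavy chain, was at 5.06 to 72.4 CPM in A (median 7.55) and at 38.0, 70.1, 81.4, 66.8 and 6.22 CPM in B1 to B5. It differed by 3.01 within control and 0.39 within restricted dams, and it passed an adjusted p of 0.05 when control dams alone were tested with the quasi-likelihood test (0.000898). PAX7 (-0.19) and MYF5 (-0.09), markers of the satellite cell itself, differed in the other direction, and ANKRD1 and MYBPH, the most abundant members, by 0.029 and -0.32. The myogenic factor MYOD1 was higher in B, by 0.49 ± 0.22 (SE), and by 0.203 without B4. DLK1, an imprinted gene of muscle growth that is also on this list, was at 0.979 to 5.30 CPM in A and at 3.96, 7.97, 4.68, 15.5 and 1.87 CPM in B1 to B5 (1.31 ± 0.45 SE, and 0.829 without B4). Among 23 tested growth and imprinted genes, 5 were under an unadjusted p of 0.05 on the higher side (IGFBP4, DLK1, IGFBP6, DCN and PEG10) and 1, IGF2R (-0.43, and -0.245 without B2), on the lower. IGFBP5, the most abundant of them, differed by 0.42 ± 0.23 (SE). The higher count was 3 without B1 and 3 without B4. The median was 0.11, and it was 0.0425 without B2, 0.0498 without A1 and 0.0571 without A3.

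Glucocorticoid, fasting and atrophy genes had the lowest median of the lists, -0.20, with a negative fold change in 18 of 20 members. FKBP5, a gene induced by glucocorticoids, was at 42.6 to 380 CPM in A (median 138) and at 38.4, 171, 45.8, 87.9 and 71.4 CPM in B1 to B5, and was the one member under an unadjusted p of 0.05 (-1.11 ± 0.52 SE, and -1.69 without B2). The most abundant members GLUL and DDIT4 differed by -0.29 and -0.15. Within control dams they differed by 0.374 and 0.435, and within restricted dams by -0.933 and -0.699. PDK4, which turns glucose oxidation down in fasting, was at 1204 CPM in its highest A library against a median of 60.1 CPM. PDK4 differed by -0.727 with all libraries, by 1.03 within control and by -2.91 within restricted dams. Summed over the list, A9 (4112 CPM) and A7 (3652 CPM) were above all other libraries, which lay between 1505 and 2543 CPM. The list median was 0.067 within control and -0.34 within restricted dams, the diet to which A7 and A9 belong. It was -0.101 without A7, -0.124 without B5 and -0.3 without B2.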

How the data were processed

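RNA of 14 muscle libraries was measured. The table the authors deposited holds raw counts per gene, with no normalization. Per the submitters' processing notes, FastQC, HISAT2, featureCounts, edgeR and the build ARS-UCD1.2 were used; versions, roles and strand setting: not given in the sources used here. Whether reads of genes that overlap or lie antisense were separated is therefore not known. Per the labels, total RNA was treated with DNase.

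Groups came from the letter in the title. The members and gene lists were chosen with earlier results of these data known. The analysis used edgeR 4.0.16 in R 4.3.3, with filterByExpr by letter (minimum count 10, minimum total 15) and TMM scaling. The quasi-likelihood F test with dam diet as covariate gave p-values, adjusted by Benjamini-Hochberg over all genes, threshold 0.05. CPM are scaled in the same way; a symbol on several rows was read from the row with the most reads. Standard errors are the log2 fold change over the root of F, and intervals cover 95%. Library measures were compared by a two-sided exact permutation test within diets (735 assignments, smallest p 0.00136). The closest pair of libraries had a chi-square of 12 per degree of freedom, so none was a copy. The test was tested on simulated data.

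Genes were named by a rule: up to 15 genes with the smallest p in each direction past the threshold (5 where fewer passed), SPP1, COL1A1, COL3A1 and LUM, and of each list described the 2 tested members with the highest level. Other genes were named after their values were seen. Alternatives were other scalings, filters and tools (DESeq2 1.42.0, limma 3.58.1), the title prefix as covariate, each diet alone, titles with Y alone, and each library left out. No sequences are printed, and a few list members are not reported here.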

Additional observations from a re-analysis of the deposited data

Results flagged for a closer look

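In 7 of 108 groups of libraries tested, where chance gives about 5.4, 1 library stood apart from the others of its letter by Dixon's criterion. Library B5 had a summed interferon response of 813.2 CPM against 173.6 to 239.2 in the other B libraries, and a summed level of fatty acid and triglyceride synthesis genes of 2546 CPM against 1259 to 1446. Library B2 had the lowest summed level of cell cycle genes in B, 128.5 CPM against 144.6 to 149.5. In A, A7 lay at -35.7 on the second principal component (11.2% of the variance) against -10.2 to 13.04. The same library had 6.988 CPM of neutrophil and mast cell genes against 3.968 to 5.267. Library A6 had 20.81 CPM of erythroid genes against 1.291 to 5.05. Library A9 had 2303 CPM of satellite cell and developmental genes against 1575 to 1822.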

How the results depend on the processing

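Against 0 genes called by letter, DESeq2 called 20, the test with no filter on low counts 1 (SPP1), control dams alone 3 (MYH3, NR4A3 and ULBP13), and the libraries without the 3 with the highest interferon response, chosen after seeing the data, 5. Leaving out single libraries gave 0 to 2 calls: SPP1 without A2 or B5, SPP1 and LUM without B2, CXCL14 and COL1A1 without A5. The other scalings, tools and subsets called 0. Genes whose difference depended on diet numbered 7 with DESeq2 and 0 to 2 with single libraries left out, against 0. The difference of 282 detected genes had an adjusted p of 0.063 when the letter was permuted over all libraries without regard to diet, and with Y titles alone it was 284 with an adjusted p of 0.16 (exact permutation tests). The causes were not tested. SPP1, LUM, FNDC1, COL1A1 and COL3A1 had the higher level in B, and SFR1, DYRK2, EEF2, ASB18 and CREBRF the lower, under every alternative run. Titles with Y alone gave a median of 0.46 for the collagens and 0.30 for the small proteoglycans, against 0.43 and 0.54. With 5 B libraries, precision is limited by the number of animals, and SPP1 rests on 2 to 121 reads per library.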
